A study of Chlorocebus sabaeus with 18 samples.

Results

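Alternative first exon events are places in a gene where transcripts can begin with one exon or with another and then join the same downstream exon. The deposited EventPointer tables list the same 6311 splicing events for 5 comparisons, and the 842 events whose type column reads "Alternative First Exon" are described here. Of these, 834 carry an Ensembl gene identifier, which makes 745 genes, and 79 genes hold more than 1 event (at most 5). The files give no gene symbols, so windows are called by their GRCh38 position.

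A first exon is set by where transcription starts, so a switch between 2 first exons usually reflects the use of another promoter, while the choice of a last exon depends on splicing and on where the transcript is cut and polyadenylated. TRA2A, the protein varied in this study, is an SR-like protein that binds purine-rich RNA and acts on the splicing of internal exons. In FXTAS, a late-onset tremor and ataxia syndrome, an expanded CGG repeat in the FMR1 leader is transcribed, and its RNA gathers proteins into nuclear inclusions.

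The cells were COS-7, a fibroblast-like kidney line of the African green monkey that carries SV40 large T antigen. There were 6 groups of 3 samples. CGG cells were transfected with 60 CGG repeats in the 5′ untranslated region of FMR1, GFP_TRA cells overexpressed TRA2A, siTRA cells had TRA2A knocked down, CGG_TRA cells had the repeat together with TRA2A overexpression, CGG_siTRA cells had the repeat together with the knockdown, and CTL cells were untreated controls. The labels name no empty-vector or control-siRNA group, so in every comparison with CTL the named agent and the transfection cannot be told apart. Counts per exon bin were at hand for 15 libraries, all groups but CGG_TRA, with 121142115 to 203957869 counts per library. Libraries of a group are lettered a to c. The labels do not say whether these were cultures grown apart, and a p-value here reflects no more than the spread among the libraries, which may be technical. The median gene lay 0.0472 to 0.205 log2 units from the mean of the other 2 libraries of its group, with siTRA library b the farthest. The level of TRA2A and the identity of the cells were not checked, because the files do not pair identifiers with names.

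The type name did not mean the same on both strands. An event's window runs from the edge of the far exon to the edge of an exon that both forms share. The near exon is the one closest to the shared exon among those with a mean of 10 or more normalised counts. Some windows hold no near exon, and others hold further exons between far and near. Whether transcripts begin or end at the near exon was not checked, so it need not be an alternative first or last exon. A window has a first-exon layout when the shared exon lies downstream of the far exon in the direction of transcription, and a last-exon layout when it lies upstream. On plus-strand genes 502 of 587 windows (85.5%) had the first-exon layout and 14 the last-exon layout. On minus-strand genes 10 of 246 windows (4.1%) had the first-exon layout and 175 (71.1%) the last-exon layout. Events typed Alternative Last Exon showed the mirror image, with a last-exon layout in 209 of 254 plus-strand windows (82.3%) and a first-exon layout in 464 of 536 minus-strand windows (86.6%). The far exon itself told the same story: its median position along the gene, from the 5′ end, was 1.54% for 503 plus-strand windows and 96.11% for 175 minus-strand windows. The type names thus followed chromosome coordinates, and the 842 events held 512 windows of first-exon layout, 189 of last-exon layout and 141 of neither. Both layouts are kept below, and each window is given with its own.

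**Figure D1:**
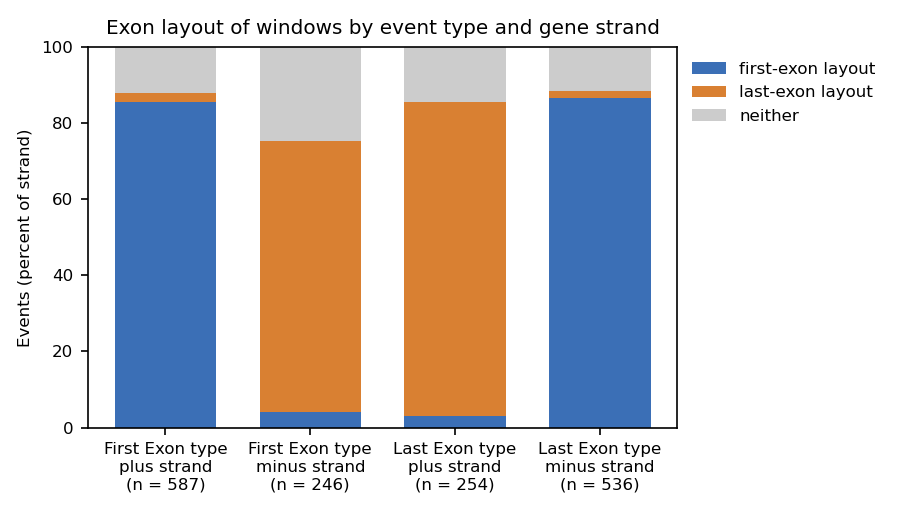
Share of windows, in percent of each strand, with a first-exon layout (blue), a last-exon layout (orange) or neither (grey), for both event types and both strands. Blue fills 85.5% of the bar for the Alternative First Exon type on the plus strand and 4.1% of the bar on the minus strand, and the Alternative Last Exon type shows the reverse.

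The windows were long, with a median of 9007 bases on plus-strand genes (131 to 999448) and of 14035 bases on minus-strand genes (408 to 861396). PSI, the fraction of transcripts that include an event's counted form, moved little: in the authors' deposited tables the median absolute Delta PSI of the 842 events was 0.0110 to 0.0125 over the 5 comparisons, against 0.00856 to 0.00957 for all 6311 events. Delta PSI was 0 in 71 or 72 of them per comparison. An absolute Delta PSI of 0.1 or more was reached by 27 events in CGG against CTL (3.21%, beside 2.17% of all events) and 25 in GFP_TRA against CTL (2.97%, beside 2.25%), according to the authors' deposited tables. There 14 reached it in CGG_siTRA against siTRA (1.66%, beside 1.06%), 12 in CGG_TRA against CGG (1.43%, beside 0.982%) and 17 in CGG_TRA against CGG_siTRA (2.02%, beside 1.95%).

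The authors' p-values, adjusted here by Benjamini-Hochberg over all 6311 events and called below 0.05, picked out few Alternative First Exon events. In CGG against CTL 12 of 842 events were called (1.43%, beside 1.33% of all events), 2 with a positive Delta PSI (0.285% of all events) and 10 with a negative one (0.998% of all). GFP_TRA against CTL gave 10 called events (1.19%, beside 1.22% of all), 2 positive (0.428% of all) and 8 negative (0.776% of all). CGG_siTRA against siTRA gave 2 (0.238%, beside 0.0475% of all, which is 3 events), 1 positive (0.0158% of all) and 1 negative (0.0317% of all). All 3 events called in CGG_TRA against CGG (0.356%, beside 0.412% of all) had a positive Delta PSI, where 0.285% of all events were called with a positive and 0.127% with a negative one. So did the 8 called in CGG_TRA against CGG_siTRA (0.95%, beside 0.713% of all), where 0.475% of all events were called with a positive and 0.222% with a negative value. The 35 calls fell on 29 events: 24 were called in 1 comparison, 4 in 2 and 1 in 3. By layout these were 15 first-exon windows, 12 last-exon windows and 2 of neither, and 12 of the 29 reached an absolute Delta PSI of 0.1 where they were called. The files do not say which group the Delta PSI is taken from, nor which form PSI counts.

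**Figure D2:**
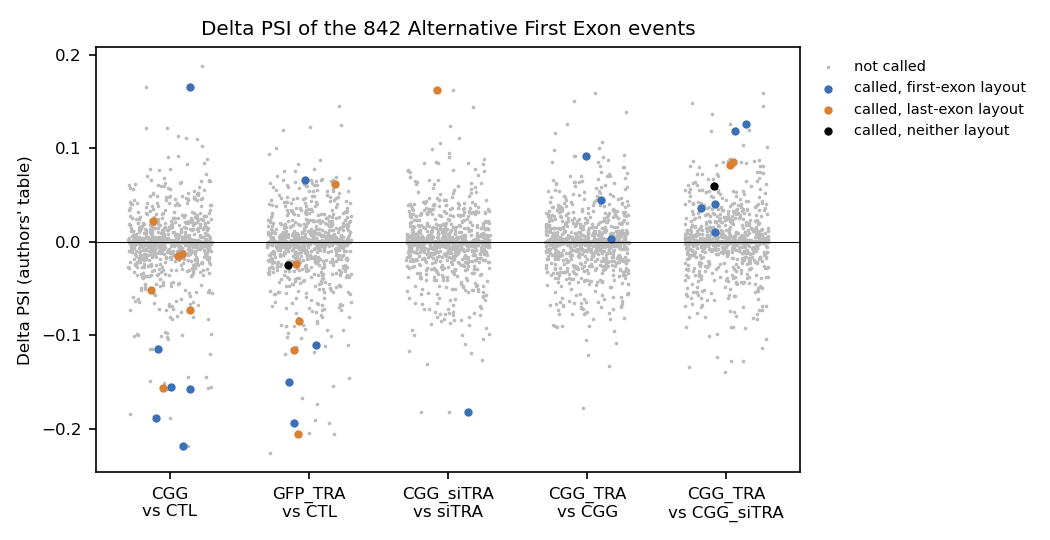
Delta PSI of each of the 842 events (grey points) in the 5 comparisons, with called events in blue (first-exon layout), orange (last-exon layout) or black (neither). Most points lie close to 0, and the called events of the last 2 comparisons all lie above it.

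Windows A to F, given below, held 5, 6, 4, 3, 11 and 17 separate stretches of exon bins, the shared exon left out. The balance of far and near exon shifted at chr10:24380869-24473228 on the plus strand, window A. Its far exon (chr10:24380869-24381005) had 432, 343 and 341 normalised counts in CGG libraries, 390.1, 373 and 347 in GFP_TRA, 296 to 384 in siTRA and 319 to 347 in CGG_siTRA, against 584, 599 and 578 in CTL. The near exon (chr10:24466531-24466790) went the other way, with 162.5 ± 8.45 normalised counts in CGG, 143.2 ± 16.9 in GFP_TRA, 197.6 ± 23.1 in siTRA and 158.3 ± 13.5 in CGG_siTRA, against 110.1 ± 7.62 in CTL (SD, n = 3 each). All 12 transfected libraries lay below the controls for the far exon and above them for the near one. The far exon's share of both exons' counts was 69.4% in CGG, 72.1% in GFP_TRA, 62.4% in siTRA and 67.8% in CGG_siTRA, against 84.2% in CTL. The balance of far over near exon, tested with limma over 1058 windows, fell by 1.22 on the log2 scale in CGG against CTL (SE 0.15, adjusted p = 4.3e-05), and in GFP_TRA and siTRA against CTL the changes were -1.04 and -1.68. The use of the near exon relative to its gene rose in all 3 comparisons with CTL (edgeR diffSpliceDGE, log2 1.08, 0.90 and 1.42). The use of the far exon did not pass in any of them (log2 -0.14, -0.14 and -0.26, adjusted p = 1.0, 1.0 and 0.715). The gene as a whole fell, with log2 changes of -0.50, -0.54 and -0.52 (edgeR quasi-likelihood test, adjusted p = 1.8e-06, 8.04e-07 and 5.55e-07). The authors' deposited table gave a Delta PSI of -0.115 for CGG and -0.110 for GFP_TRA against CTL, and both were called.

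Window B, chr7:148217288-148383649 on the plus strand of a region where the annotation merges 2 overlapping genes, changed its far exon more than the gene. The far exon (chr7:148217288-148217524) had 47.4, 41.3 and 45.5 normalised counts in CGG, 38.0, 30.2 and 35.9 in GFP_TRA, 28.6 to 36.1 in siTRA and 27.4 to 45.1 in CGG_siTRA, against 100.9, 95.8 and 104 in CTL. The near exon (chr7:148339461-148339633) averaged 160.5 in CGG, 125.9 in GFP_TRA, 149.8 in siTRA and 143 in CGG_siTRA, against 103 in CTL, with only CGG_siTRA overlapping the controls. The far share was 22.0% ± 2.89 in CGG, 21.8% ± 3.58 in GFP_TRA, 18.2% ± 3.54 in siTRA and 19.8% ± 4.42 in CGG_siTRA, against 49.4% ± 2.05 in CTL (SD, n = 3 each). The use of the far exon relative to the gene fell in each comparison with CTL (diffSpliceDGE, log2 -1.04, -1.15 and -1.63 in CGG, GFP_TRA and siTRA; adjusted p = 0.00942, 0.00225 and 4.26e-07). The gene total passed the test in GFP_TRA only (edgeR log2 -0.39, adjusted p = 0.00231), and its log2 changes in CGG and siTRA were -0.10 (SE 0.09) and 0.09 (SE 0.09). In the authors' deposited table the Delta PSI was -0.219 for CGG, which was called, and -0.226 for GFP_TRA, which was not.

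Windows C and D shared this direction. Window C, chr10:6144919-6213623 on the plus strand, had a far share of 20.1, 20.6 and 18.0% in CGG, 26.4, 24.6 and 19.9% in GFP_TRA, 20.9 to 22.8% in siTRA and 16.9 to 21.9% in CGG_siTRA, against 38.3, 37.7 and 30.0% in CTL. Its balance fell by 1.15 (log2) in CGG against CTL (limma, SE 0.20, adjusted p = 0.00198) and passed the test for GFP_TRA and siTRA as well (-0.81 and -0.98), while its gene did not pass in any of the 3 (edgeR, adjusted p = 0.118, 0.303 and 0.372). The GFP_TRA call was lost without GFP_TRA library b or c or CTL library a or b (adjusted p 0.0671 to 0.125). Neither exon's use relative to the gene passed diffSpliceDGE in any of the 3 comparisons (far exon log2 -0.81, -0.53 and -0.65). The authors' deposited table gave this window a positive Delta PSI, 0.165 in CGG against CTL, although the far share fell as it did in windows A and B. Window D, chr9:113584099-113594430 on the plus strand, had a far share of 30.7% ± 2.09 in CGG, 27.9% ± 3.95 in GFP_TRA, 28.6% ± 0.67 in siTRA and 32.9% ± 1.64 in CGG_siTRA, against 42.6% ± 4.08 in CTL (SD, n = 3 each). Here the near exon carried the difference, with 290.1 normalised counts in CGG and 282.5 in GFP_TRA, against 179.8 in CTL, while the far exon had 128.9 in CGG and 110.2 in GFP_TRA, against 135.2 in CTL, and overlapped the controls. In siTRA the far exon averaged 100.5 and lay below every control. The gene passed the test in CGG (edgeR log2 0.28, adjusted p = 0.00869) and not in GFP_TRA (0.13, adjusted p = 0.207) or siTRA (0.08, adjusted p = 0.438). Its balance was called for GFP_TRA (-0.95, adjusted p = 0.00225) and siTRA (-0.88), and for CGG (-0.75, adjusted p = 0.0203). The CGG call was lost without CGG library a or c, or CTL library a or b (adjusted p 0.0807 to 0.109). Of the exon tests only the balance, added after the data were seen, passed at windows C and D. At window D neither exon's use passed diffSpliceDGE (near exon adjusted p = 0.404 in CGG, 0.0942 in GFP_TRA and 0.167 in siTRA). Its Delta PSI was called in GFP_TRA against CTL, at -0.150 in the authors' deposited table.

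Window E, chr7:134779661-134928754 on the plus strand, was the one event called in 3 comparisons. The authors' deposited tables gave -0.155 for CGG against CTL, 0.0918 for CGG_TRA against CGG and 0.126 for CGG_TRA against CGG_siTRA. The far exon averaged 426 normalised counts in CGG, 509 in GFP_TRA, 408 in siTRA and 389 in CGG_siTRA, against 834 in CTL. The gene fell with it, to 35360 in CGG, 38160 in GFP_TRA and 36460 in siTRA, against 52840 in CTL (edgeR log2 -0.56, -0.48 and -0.48). The near exon was scarce, at 13.8 to 22.2 normalised counts in the group means, and the far share stayed between 91.8 and 98.8% in all 15 libraries. The exon balance did not pass the test in any comparison, the nearest being siTRA against CTL (log2 -1.34, adjusted p = 0.0535). Counts for CGG_TRA were not analysed here, so the 2 positive values have no exon counts beside them.

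Of the called last-exon windows, all but the one at chr1:63571128 lay on minus-strand genes. Window F, chrX:54072851-54182500, had a far exon, the 3′-most of the window, with 297, 273 and 274 normalised counts in CGG and 285, 269.7 and 325 in GFP_TRA, against 422, 376 and 416 in CTL. Its near exon averaged 169 in GFP_TRA and 137 in CGG, against 109 in CTL, and lay above every control in GFP_TRA. The use of the near exon rose in both (diffSpliceDGE, log2 0.76 in CGG and 1.04 in GFP_TRA; adjusted p = 0.0179 and 3.42e-05), and the gene fell (edgeR log2 -0.40 and -0.43). The balance was called for GFP_TRA (log2 -1.10, adjusted p = 0.0112), but not without GFP_TRA library a (adjusted p = 0.063) or CTL library c (0.0763), and the authors' deposited table gave -0.157 in CGG and -0.206 in GFP_TRA. At chr6:99399533-99412551, also a last-exon window, the called Delta PSI was far smaller, -0.0131 in CGG and -0.0234 in GFP_TRA in the authors' deposited table. There the far exon averaged 954 normalised counts in CGG and 1028 in GFP_TRA, against 1449 in CTL, and the gene fell by 0.44 and 0.42 on the log2 scale. The near exon averaged 69.9 in CGG and 87.5 in GFP_TRA, against 61.5 in CTL, and its use rose in GFP_TRA (diffSpliceDGE log2 0.91, adjusted p = 0.0269). The balance was called in GFP_TRA (log2 -1.01, adjusted p = 0.0182), but not without GFP_TRA library a or b or CTL library a or c (adjusted p 0.0671 to 0.115).

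**Figure D3:**
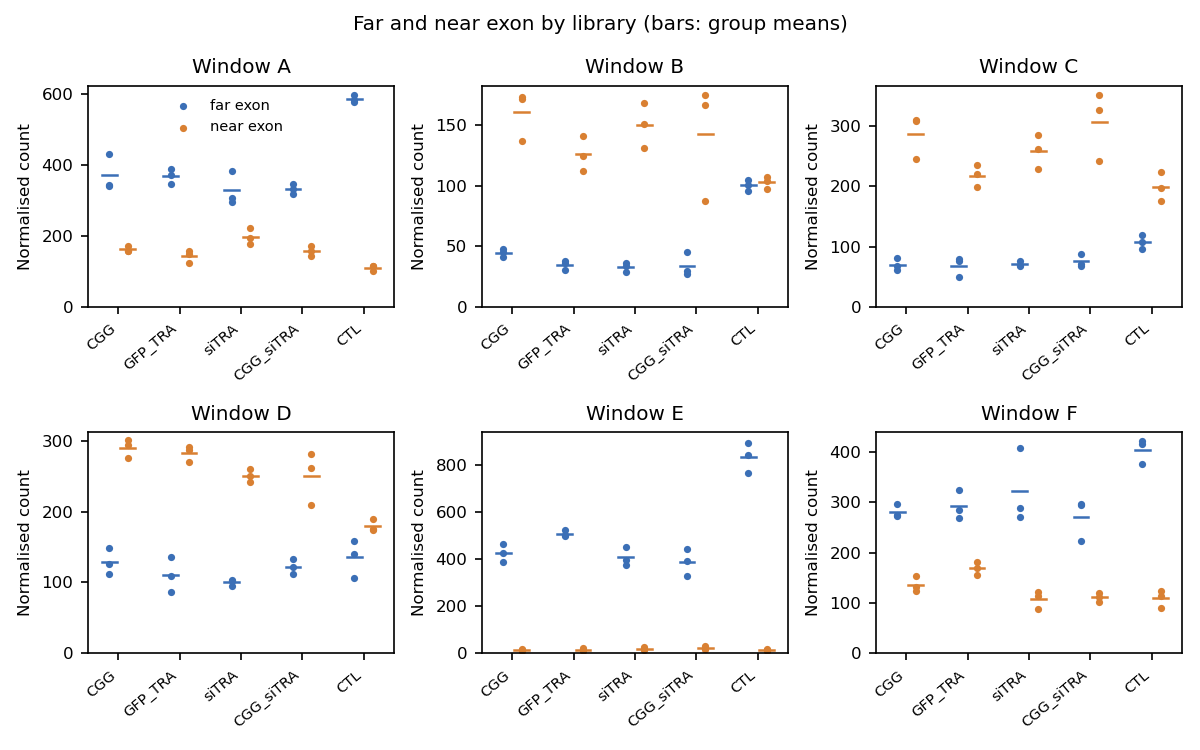
Normalised counts of the far (blue) and near (orange) exon in each library at windows A to F, with bars at the group means. In windows A and B the far exon of every transfected library lies below all 3 CTL libraries, while in window E the near exon stays close to the axis in every group.

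3 further called last-exon windows had a far share on one side of CTL in all 12 transfected libraries. At chr18:46812362 it was 65.8% in CGG, 64.7% in GFP_TRA, 64.4% in siTRA and 65.3% in CGG_siTRA, against 71.6% in CTL. Its balance was called in GFP_TRA (limma log2 -0.46, adjusted p = 0.0478) and siTRA (-0.48, adjusted p = 0.0306). The GFP_TRA call was lost without any 1 of the 6 libraries (adjusted p 0.0766 to 0.179), and the siTRA call without siTRA library c or CTL library a or b (0.0816 to 0.13). At chr13:19677766 the far share was 5.54% in CGG, 3.87% in GFP_TRA, 4.68% in siTRA and 5.31% in CGG_siTRA, against 2.61% in CTL, and the balance did not pass (CGG against CTL log2 1.09, adjusted p = 0.0583). At chr3:15411225 it was 97.6% in CGG, 97.4% in GFP_TRA, 97.3% in siTRA and 97.9% in CGG_siTRA, against 98.8% in CTL, with a scarce near exon, and the balance did not pass (GFP_TRA against CTL log2 -0.93, adjusted p = 0.234). Some called events had no matching difference in the far exon. At chr14:102830334 the Delta PSI of -0.158 in CGG against CTL, from the authors' deposited table, was called here. Yet the window's far exon had 140, 131 and 109 normalised counts in CGG, against 92.3, 113 and 106 in CTL, which overlap. In CGG_siTRA against siTRA the called events were at chr3:170357746 (-0.182) and chr1:63571128 (0.1625) in the authors' deposited table. The far share of the chr3 window was 68.0 to 80.0% in CGG_siTRA and 54.9 to 66.7% in siTRA, so the groups did not overlap, but the balance did not pass the limma test (log2 0.93, SE 0.28, adjusted p = 0.227). The called minus-strand window of first-exon layout was at chr7:27142085, with a Delta PSI of -0.189 in CGG and -0.194 in GFP_TRA against CTL in the authors' deposited tables. Its far exon could not be matched to the exon bins, and the gene's log2 change was -0.30 in CGG (edgeR, adjusted p = 0.00535) and -0.22 in GFP_TRA (0.0292). Called in CGG_TRA against CGG_siTRA were also chr20:3889597 (Delta PSI 0.119), chr22:31326355 (0.0852), chr11:111726720 (0.0825) and chr19:12995775 (0.0408), with values from the authors' deposited table. In GFP_TRA against CTL, chrX:40627915 (-0.116) and chr11:47565619 (0.0665) were called as well. In CGG against CTL, chr4:52597608 (0.0228) was called, again with the authors' values. The smallest called Delta PSI was 0.00319, at chr2:55232699 in CGG_TRA against CGG in the authors' deposited table.

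The direction of Delta PSI could be set against the exon counts in 542 windows, those with a mean of 10 or more normalised counts in both exons over the 15 libraries. Among the 107 of them with no exon between far and near and a Delta PSI other than 0, its sign followed the near exon in 77 for CGG against CTL, 81 for GFP_TRA against CTL and 70 for CGG_siTRA against siTRA. Among called windows it followed the far exon in 7 of 10 for CGG and 5 of 6 for GFP_TRA. Unlike the 107, called windows could hold further exons between far and near, so these counts do not compare like windows. A negative Delta PSI is therefore not taken here to name one of the exons. Between CGG against CTL and CGG_siTRA against siTRA, which share no library, 46.8% of Alternative First Exon events had the same sign (all events 48.2%). Between GFP_TRA against CTL and CGG_TRA against CGG, also without a shared library, the share was 55.6% (all events 53.2%). The comparisons with CTL share its 3 libraries, so their values above are given side by side only.

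Since a promoter switch can come with a change in output, the gene totals were set beside Delta PSI. Windows of every layout were pooled for this, among them the 189 of last-exon layout and the 141 of neither. Of 740 tested genes with an Alternative First Exon event, 243 were called in CGG against CTL (32.8%, beside 24.2% of all 14969 genes). These were 120 higher (11.9% of all genes) and 123 lower (12.3% of all). GFP_TRA against CTL called 306 (41.4%, beside 28.9% of all), 207 higher (14.5% of all) and 99 lower (14.4% of all), and siTRA against CTL 338 (45.7%, beside 38% of all), 177 higher (18.1% of all) and 161 lower (19.9% of all). In CGG_siTRA against CGG 109 were called (14.7%, beside 10.2% of all), 36 higher (4.14% of all) and 73 lower (6.03% of all). No gene of an event was called in CGG_siTRA against siTRA by edgeR (beside 0.0134% of all genes), and the DESeq2 Wald test called 44. By edgeR 176 had an unadjusted p under 0.05 there, as had 18.9% of all genes. Without CGG_siTRA library a edgeR called 56 there, and without CGG_siTRA library b it called 68 in CGG_siTRA against CGG. The median absolute log2 fold change of these genes was 0.148, 0.178 and 0.18 in CGG, GFP_TRA and siTRA against CTL, beside 0.19, 0.209 and 0.248 for all genes.

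The genes with the largest changes of the total are given with the Delta PSI of their events. ENSG00000198074.9 (chr7:134527592-134541408), with 2 events, averaged 12690 normalised counts in CGG, 5576 in GFP_TRA and 9263 in siTRA, against 685 in CTL (edgeR log2 4.23, 3.01 and 3.83), and its largest Delta PSI in the authors' deposited tables was 0.0649 in CGG, at p = 1. ENSG00000100292.16 (chr22:35380361-35394214) averaged 57630 in CGG, 54490 in GFP_TRA and 46330 in siTRA, against 7350 in CTL (edgeR log2 2.99, 2.88 and 2.72), with a Delta PSI of -0.0167 in CGG in the authors' deposited table. ENSG00000198796.6 (chr18:58481247-58611817) averaged 19960 in CGG, 19270 in GFP_TRA and 18320 in siTRA, against 64620 in CTL (edgeR log2 -1.67, -1.76 and -1.76), and its Delta PSI was -0.0086 in CGG in the authors' deposited table. ENSG00000187446.11 (chr15:41230839-41281890) averaged 8110 in siTRA and 7544 in CGG_siTRA, against 32300 in CGG and 28280 in CTL (edgeR log2 -1.74 for siTRA against CTL and -2.00 for CGG_siTRA against CGG). Delta PSI for those 2 comparisons was not analysed here. Of the 11 events in genes called and changed at least 2-fold in CGG against CTL and the 8 in GFP_TRA against CTL, none was called and none reached a Delta PSI of 0.1, with maxima of 0.0649 and 0.0563 in the authors' deposited tables. With so few events and the shares called above, less than 1 called event would be met among them at the background rate. Their median absolute Delta PSI was 0.0295 in CGG and 0.0219 in GFP_TRA, against 0.0108 and 0.0119 for the other events, in the authors' deposited tables.

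Over all 830 events with a tested gene, the size of Delta PSI in the authors' deposited tables and the size of the gene's change had a Spearman's rho of 0.07 in CGG, 0.01 in GFP_TRA and 0.08 in CGG_siTRA against siTRA (Pearson's r 0.10, 0.11 and 0.13). These are descriptions across events measured in the same libraries. Among called events, the gene was also called in 8 of 12 in CGG against CTL (7 lower, 1 higher) and in 6 of 10 in GFP_TRA against CTL (4 lower, 2 higher). Of all 830 events, 33.1% in CGG and 41.4% in GFP_TRA had a called gene. Among events with an absolute Delta PSI of 0.1 or more in the authors' deposited tables, the gene was called in 14 of 27 in CGG (51.9%, 10 lower and 4 higher) and in 19 of 25 in GFP_TRA (76.0%, 12 lower and 7 higher). Among events with an unadjusted p under 0.05 the gene was called in 30.0% in CGG and 41.5% in GFP_TRA. Differences between these shares were not tested.

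**Figure D4:**
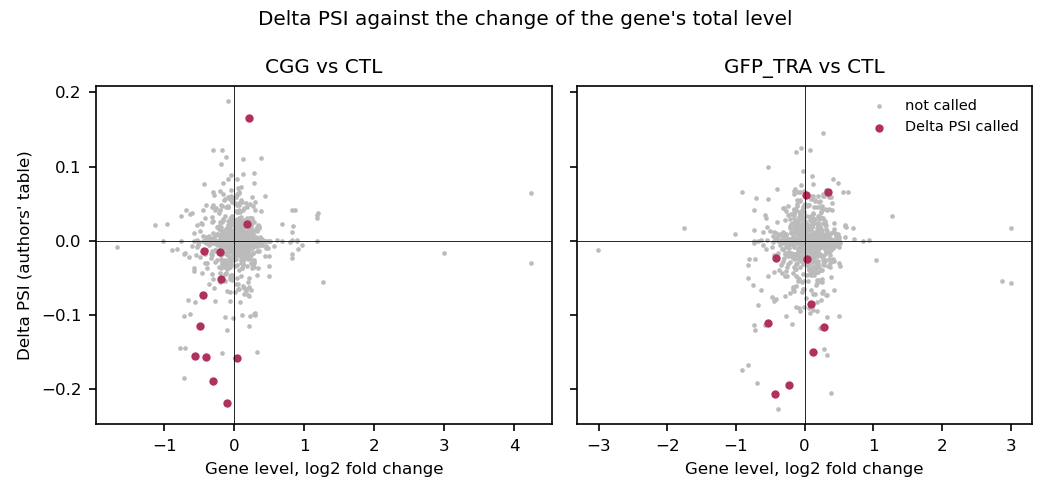
Delta PSI (vertical axis) against the gene's log2 fold change (horizontal axis) for events with a tested gene in 2 comparisons with CTL, with called events in red. Most events lie near 0 on both axes, and events in genes called and changed at least 2-fold reach an absolute Delta PSI of 0.0649 in CGG and 0.0563 in GFP_TRA.

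The far exon of a window mostly moved with the gene, and the near exon less closely. In CGG against CTL the far and near exon changed in the same direction in 365 of the 542 windows (67.3%), in GFP_TRA in 380 (70.1%) and in siTRA in 367 (67.7%). Across windows the log2 change of the far exon had a Spearman's rho of 0.82, 0.86 and 0.78 with that of the gene. The near exon had 0.57, 0.59 and 0.61. The changes of the far and near exon had a rho of 0.44, 0.45 and 0.43 with each other. Each exon is part of its gene's total. In CGG against CTL both exons separated from the controls without overlap, to the same side, in 19.7% of windows and to opposite sides in 14 windows (2.58%). Taken singly, 39.2% of all exon bins did not overlap between the groups, which is no base rate for pairs of exons. A rate for pairs over all windows is not given here. Opposite moves were seen in 14 windows in GFP_TRA and 15 in siTRA, where 36.6% and 37.9% of all bins, taken singly, did not overlap.

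The exon-use test called few exons. Of 675 far exons tested, use relative to the gene was called in 2 in CGG against CTL (0.296%, beside 0.235% of all 265486 bins). In GFP_TRA 1 was called (0.148%, beside 0.358% of all) and in siTRA 5 (0.741%, beside 0.479% of all), all 5 lower. Of 558 near exons, 7, 12 and 8 were called in the same comparisons (1.25%, 2.15% and 1.43%). These shares lay above those of all bins, and the differences were not tested. Far exons called outside window B were at chr7:139341368 in CGG (log2 0.56), and in siTRA at window E (-0.50), chr5:146447334 (-0.63), chr8:61503271 (-0.56, a last-exon window) and chr10:110007996 (-0.85). In CGG_siTRA against CGG 1 far and 1 near exon passed (0.134% of all bins), and in CGG_siTRA against siTRA 1 far exon passed (0.0347% of all bins) and no near exon did, with 30 near exons at an unadjusted p under 0.05. The share of all bins at that unadjusted p is not given here.

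The balance of far over near exon was called in 9 of 542 windows in CGG against CTL (1.98% of all 1058 windows were called), 2 towards the far and 7 towards the near exon. In GFP_TRA against CTL 26 windows were called (4.25% of all), 11 towards the far and 15 towards the near exon, and in siTRA against CTL 32 (5.77% of all), 11 and 21. By layout, the balance was called in 1.52% of 394 first-exon windows and 2.03% of 148 last-exon windows in CGG, in 3.81% and 7.43% in GFP_TRA, and in 3.81% and 11.5% in siTRA. The differences between layouts and between directions were not tested, and their shares over all 1058 windows are not given here. With a fit on the libraries of the compared groups only, the counts were 57, 43 and 10, and leaving out 1 library gave 3 to 6, 5 to 18 and 14 to 52. The lowest came without CGG library c, GFP_TRA library b and CTL library b, and the highest for siTRA without siTRA library c. In CGG_siTRA against CGG 1 window was called (0.378% of all), and in CGG_siTRA against siTRA none (0% of all), with 63 at an unadjusted limma p under 0.05. The share of all 1058 windows at that unadjusted p is not given here. The gene total was not called in 4 of the 9, 13 of the 26 and 20 of the 32 windows. Of the 740 tested genes with an event, 32.8%, 41.4% and 45.7% were called in CGG, GFP_TRA and siTRA against CTL.

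In all 50 windows were called in some comparison, 6 of them in all 3 comparisons with CTL, which share their controls: windows A to D, chr9:15465403 and chr4:113174416. At chr4:113174416, a first-exon window, both exons were lower and the near exon more so: the far exon averaged 377.5 normalised counts in CGG, 462 in GFP_TRA and 332 in siTRA, against 569 in CTL, and the near exon averaged 209.1 in CGG, 272.8 in GFP_TRA and 182.3 in siTRA, against 513.1 in CTL. Its gene fell by 1.01, 0.68 and 1.01 on the log2 scale, while the balance rose by 0.69, 0.60 and 0.70 (limma, adjusted p = 0.0339, 0.0478 and 0.0181). Each of these 3 calls was lost when CTL library a was left out (adjusted p = 0.218, 0.238 and 0.107) or CTL library c (0.141, 0.143 and 0.064), and some were lost without single CGG, GFP_TRA or siTRA libraries. At chr9:15465403, a last-exon window, the far share was 95.0 to 96.1% in CGG, 95.7 to 95.9% in GFP_TRA and 95.5 to 96.3% in siTRA, against 96.7 to 97.6% in CTL, and its calls were lost without CTL library a (adjusted p = 0.153, 0.189 and 0.154) or b (0.0944, 0.13 and 0.133), and some without single CGG, GFP_TRA or siTRA libraries.

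**Figure D5:**
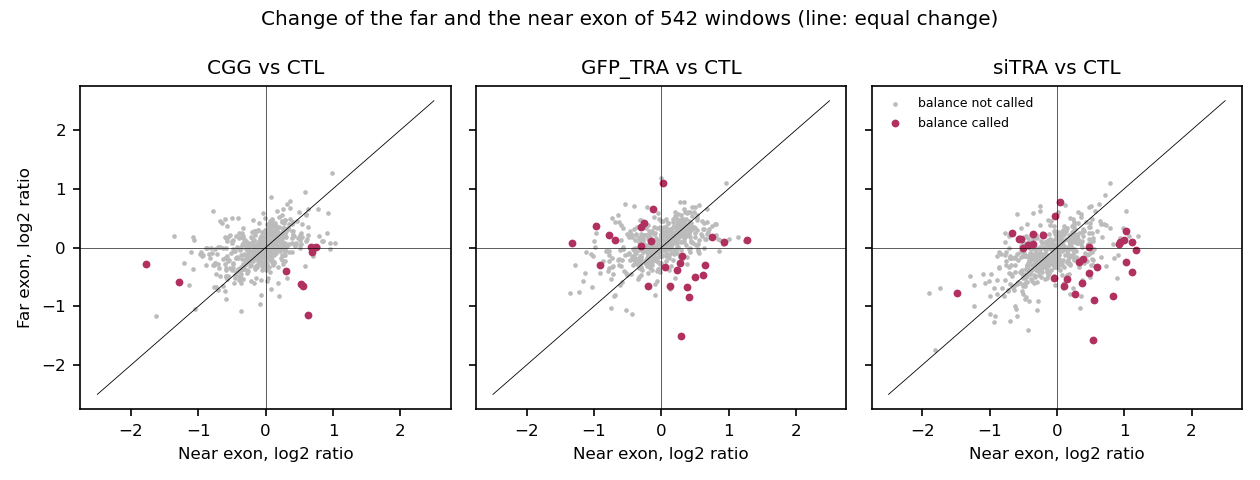
Log2 ratio of the far exon (vertical axis) against that of the near exon (horizontal axis) in 542 windows for 3 comparisons with CTL, with windows of called balance in red and a line of equal change. Across windows the ratios of far and near exon had a Spearman's rho of 0.44 in CGG, 0.45 in GFP_TRA and 0.43 in siTRA. Windows of called balance lie off the line on both sides.

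The far share of all 12 transfected libraries lay outside the 3 CTL libraries in 25 of the 542 windows, below them in 15 and above them in 10 (4.61%, beside 4.16% of all 1058 windows). The groups with and without the repeat, or with raised and lowered TRA2A, lay on the same side of CTL at windows A to D.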

How the data were processed

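Total RNA was DNase-treated on Qiagen columns and depleted of rRNA for TruSeq libraries, per the labels' protocols. The submitters' processing notes name cutadapt 1.14, STAR 2.5.2, DESeq2 and GRCh38.p10, so monkey reads were placed on a human genome, and exons that differ between the species may be undercounted. The deposited DEXSeq tables hold read counts per exon bin (431444 bins). The authors' normalised table holds a signal, counts divided by size factors, and 100.0% of its values gave whole reads within 0.1. The 5 deposited EventPointer tables hold a p-value, a Z score (not used) and Delta PSI per event. Counts for CGG_TRA were not analysed here.

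Bin counts were summed per gene and tested with edgeR 4.0.16 (quasi-likelihood, TMM, 15 libraries, genes with 10 or more normalised counts in 3 libraries). Exon use was tested with diffSpliceDGE. The balance log2((far + 1)/(near + 1)) was tested with limma 3.58.1, a test added after the data were seen. DESeq2 1.42.0 and R 4.3.3 were used for alternatives. All p-values were adjusted by Benjamini-Hochberg over the whole table, and values below 0.05 were called. Scripts were tested on simulated data. The design had named the exon at the 5′ edge, and the edge away from the shared exon was used instead, which for most minus-strand genes is the 3′ edge. Named events were up to 4 called events with the most positive and the most negative Delta PSI per comparison. Up to 10 events called most often were added. The called windows at chr13:19677766 and chr19:12995775 were named outside this rule. Named genes were taken from up to 3 called genes with the largest rise and fall, and not all are given. Windows of called balance or exon use were named after their values were seen. Lists of genes by symbol could not be applied, since identifiers are not paired with symbols. Members and lists were chosen with earlier results of these data known. In bulk RNA, fewer cells expressing a gene and less RNA per cell cannot be told apart.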

Additional observations from a re-analysis of the deposited data

Results flagged for a closer look

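The change of exon balance in CGG_siTRA against siTRA was set against that in CGG against CTL, with limma over 1058 windows. The difference passed in 6 of the 542 windows of Alternative First Exon events (1.04% of all windows were called). No library was left out in turn for this test. At window A, chr10:24380869, the log2 balance change was 0.34 in CGG_siTRA against siTRA and -1.22 in CGG against CTL, a difference of 1.56 (SE 0.21, adjusted p = 0.00021). At window B, chr7:148217288, the changes were 0.14 and -1.78, and the difference was 1.92 (SE 0.36, adjusted p = 0.00724). At chr2:63841038 they were 0.49 and -0.66, with a difference of 1.15 (SE 0.21, adjusted p = 0.00724). Window D, chr9:113584099, had 0.29 and -0.75, with a difference of 1.03 (SE 0.23, adjusted p = 0.0272). The last-exon window chr16:18789118 had 0.43 and -0.18, with a difference of 0.61 (SE 0.13, adjusted p = 0.0209). At chr6:33272090 the order was the opposite, with -0.41 and 0.40 and a difference of -0.81 (SE 0.17, adjusted p = 0.0197). The siTRA libraries, the baseline of the first comparison, were themselves transfected, while the CTL libraries were not. The repeat and the transfection therefore cannot be told apart in the second. GFP_TRA against CTL, without the repeat, gave balance changes of -1.04, -1.79 and -0.95 at windows A, B and D. At chr2:63841038 and chr6:33272090 it gave 0.20 and 0.18.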

How the results depend on the processing

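With an unadjusted p under 0.05 the authors' deposited tables gave 50 events in CGG against CTL (5.94%, beside 7.68% of all events) and 65 in GFP_TRA against CTL (7.72%, beside 8.18%). They gave 60 in CGG_siTRA against siTRA (7.13%, beside 6.31%), 74 in CGG_TRA against CGG (8.79%, beside 8.13%) and 82 in CGG_TRA against CGG_siTRA (9.74%, beside 8.87%). Of the events called at an adjusted p under 0.05, those with an absolute Delta PSI of 0.1 or more numbered 7 in CGG and 5 in GFP_TRA against CTL, 0 in CGG_TRA against CGG and 2 in CGG_TRA against CGG_siTRA, and an adjusted p under 0.01 left 1 in CGG_siTRA against siTRA and 5 in CGG_TRA against CGG_siTRA. Gene calls in CGG against CTL numbered 435 with the libraries of both groups only, and the DESeq2 Wald test called 44 in CGG_siTRA against siTRA. Leaving out 1 library gave 165 to 202 genes in CGG, 223 to 264 in GFP_TRA and 272 to 363 in siTRA against CTL, 68 to 132 in CGG_siTRA against CGG and 0 to 56 in CGG_siTRA against siTRA. For far exons, in the same order of comparisons, limma's diffSplice called 1, 2, 10, 3 and 10, and leaving out 1 library gave 0 to 2, 0 to 5, 1 to 7, 0 to 1 and 0 to 5. For exon balance the fit on 2 groups called 57, 43, 10 and 4 in the first 4 comparisons, and leaving out 1 library gave 3 to 6, 5 to 18, 14 to 52, 0 to 4 and 0 to 7. The cause of these shifts was not tested. Leave-one-out values of single windows were taken where the balance was called in 2 or more comparisons or the Delta PSI was called. Of those with a called balance, 116 stayed called and 82 did not, and no value changed sign past the threshold. Windows with a balance called in 1 comparison and no called Delta PSI were not covered. No paired analysis was possible because the library columns carry no replicate number that can be tied to the labels. Near exons with few counts limit what the balance can show.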
